A study of Mus musculus with 6 samples.

Results

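The genes described here mark classical monocytes and were measured in F4/80high and F4/80low tumor-associated macrophages (TAMs) of YUMM1.7 melanoma: *Chil3*, *Vcan*, *Ly6c2*, *Plac8*, *Ifitm6*, *Hp* and *Fn1*. They are 7 of the 23424 genes in the deposited count tables, and each was found once by its symbol in all 6 tables. The genes were chosen on the contrast of F4/80high with F4/80low TAMs in these same libraries, so their difference between the subsets is described here and supports nothing. Their batch difference and their levels were not used to choose them. The other gene lists were drawn up with earlier results of these data known, so their subset differences are only described as well.

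YUMM1.7 is a mouse melanoma line, here grown intradermally in untreated wild-type C57Bl/6J females that were 8 weeks old at tumor induction. On day 21, live CD45+Lin-CD11b+ cells were sorted into F4/80high and F4/80low TAMs, F4/80 being the macrophage surface protein encoded by *Adgre1*. Each library came from 10 pooled tumors of 1 of 3 independent experiments, with 3 libraries for each subset, and RNA was selected by its poly-A tail. Libraries held 16045281 to 43604373 counts. Replicates 1 and 2 of both subsets form batch 1 and replicate 3 of both forms batch 2, as the study draws them in its PCA. In batch 2, *Lars2*, *Gm23935* and *Gm15564* together held 16.1% and 17.1% of the counts, against 0.378% to 0.609% in batch 1. CPM are counts scaled to the library size after TMM normalization. F4/80high replicate 1 stood apart within its subset, with T and NK cell markers at 1757 CPM in sum against 507 and 290 CPM, and neutrophil markers at 2469 CPM against 1104 and 842 CPM. In F4/80low, replicate 1 was also highest in neutrophil markers, at 5921 CPM against 3619 and 1741 CPM. It was not so in T and NK cell markers, at 624 CPM against 794 and 140 CPM. The tumors were of 1 cell line, and pooling hides the spread between animals. *Adgre1* was higher in F4/80high TAMs in 3 of 3 replicate pairs. *Ptprc*, which encodes CD45, measured 694 to 2928 CPM and *Itgam*, which encodes CD11b, 462 to 927 CPM over the 6 libraries. *Csf1r*, the receptor for the macrophage growth factor CSF1, measured 437 to 1413 CPM.

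Classical monocytes leave the bone marrow, enter inflamed tissue through the chemokine receptor CCR2, and can turn into macrophages there. In mice they carry Ly6C on the surface, and they share much of their granule and alarmin program with neutrophils, which arise from a common progenitor. As monocytes mature in tissue they lose Ly6C and gain macrophage proteins such as MERTK, the mannose receptor and complement C1q. In bulk RNA, fewer cells of a type and less RNA per cell cannot be told apart.

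All 7 genes lie on the minus strand of GRCm38 in the GENCODE M21 annotation. Promoter sequences of 5 of the 7 were found in the RefSeq table of GRCm38.p6. The 120 bases before the start of each are shown because the levels of these genes are compared with each other below. For *Plac8* and *Ifitm6* the window begins farther out, past the M21 exon bases next to the RefSeq start. The *Plac8* window lies upstream of the whole gene in M21, and that of *Ifitm6* lies inside the M21 span of the gene. Motifs were searched on both strands over 250 bases and are in capitals: PU.1 (GAGGAA), C/EBP (TTGCNNAA), the interferon element ISRE, AP-1 (TGANTCA), RUNX (TGTGGT) and NF-kB. The TATA box (TATAAA) was searched on the gene's strand alone.
*Chil3*, chr3:106167565-106167684: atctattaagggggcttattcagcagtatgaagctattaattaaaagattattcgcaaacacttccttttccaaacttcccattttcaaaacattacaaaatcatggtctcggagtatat
*Vcan*, chr13:89742513-89742632: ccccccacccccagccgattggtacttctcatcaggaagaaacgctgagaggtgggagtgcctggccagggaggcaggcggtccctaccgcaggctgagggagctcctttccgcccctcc
*Ly6c2*, chr15:75111972-75112091: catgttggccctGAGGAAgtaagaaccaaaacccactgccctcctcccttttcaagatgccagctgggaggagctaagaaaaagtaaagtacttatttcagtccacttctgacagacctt
*Plac8*, chr5:100572246-100572365: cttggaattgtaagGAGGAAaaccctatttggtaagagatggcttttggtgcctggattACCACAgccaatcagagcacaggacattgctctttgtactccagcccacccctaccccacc
*Ifitm6*, chr7:141016909-141017028: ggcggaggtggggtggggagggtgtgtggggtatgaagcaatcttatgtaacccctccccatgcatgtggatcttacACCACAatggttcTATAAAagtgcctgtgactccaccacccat
The *Ly6c2* window held 1 PU.1 match, 108 bases upstream. *Plac8* had PU.1 matches 146 and 15 bases upstream and RUNX matches 201 and 101 bases upstream, of which the farthest and the nearest lie outside the letters shown. *Ly6c2* also had a RUNX match 179 bases upstream. In *Ifitm6* a RUNX match 59 bases upstream stood beside a TATA box 46 bases upstream. *Chil3* and *Vcan* held none of the 7 motifs, and no C/EBP, ISRE, AP-1 or NF-kB match was found in the 5 promoters. Of 27025 mouse promoters of the same length, 23.1% held the PU.1 motif, 14.2% RUNX, 9.55% C/EBP, 8.12% the TATA box, 6.87% AP-1, 4.6% NF-kB and 3.04% ISRE. The promoters also differed in base composition, with 36.4% G and C in *Chil3* and 62.4% in *Vcan* over 250 bases.

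Close copies of 2 of the genes bear on how reads were counted. The first 90 coding bases of *Chil3* and *Ly6c2* from the M21 transcripts are shown beside those of *Chil4* and *Ly6c1*, with the bases that differ within each pair in capitals.
*Chil3*: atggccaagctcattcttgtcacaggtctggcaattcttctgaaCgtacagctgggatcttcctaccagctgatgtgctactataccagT
*Chil4*: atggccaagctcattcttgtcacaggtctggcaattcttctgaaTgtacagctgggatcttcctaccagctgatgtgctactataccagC
*Ly6c2*: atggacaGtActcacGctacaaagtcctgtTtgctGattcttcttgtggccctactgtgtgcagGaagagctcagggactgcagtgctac
*Ly6c1*: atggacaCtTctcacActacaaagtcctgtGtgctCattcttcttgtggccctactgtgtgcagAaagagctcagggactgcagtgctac
The coding sequences were 94.4% identical between *Chil3* and *Chil4* and 97.7% between *Ly6c2* and *Ly6c1*. Of the 50-base windows of *Chil3*, 20.6% occur unchanged in the *Chil4* transcript, and of those of *Ly6c2*, 46.7% occur in *Ly6c1*. Counts on the copies were low all the same. *Chil4* took 0% to 0.0664% of the reads counted on both chitinase-like genes, and *Ly6c1* took 0.0613% to 1.4% of those on both Ly6C genes. How reads that match both were counted is not given in the sources used here, so the split is uncertain. Summing each gene with its copy left the pair differences of *Chil3* at -1.57, -1.97 and -2.03 and those of *Ly6c2* at 0.42, -1.74 and -0.60 on the log2 scale. *Ifitm6* shares no 50-base window with *Ifitm3*.

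*Chil3* (ENSMUSG00000040809, chromosome 3 from 106147554 to 106167564) encodes Ym1, a chitinase-like lectin secreted by myeloid cells. It measured 489, 222 and 163 CPM in F4/80high replicates 1, 2 and 3. It measured 1454, 867 and 666 CPM in F4/80low replicates 1, 2 and 3. Every F4/80low library lay above every F4/80high library, and the ratio of low to high was 2.97, 3.90 and 4.10 in pairs 1, 2 and 3. The fitted log2 fold change was -1.82 (SE 0.34), where a negative value is lower in F4/80high TAMs.

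*Ifitm6* (ENSMUSG00000059108, chromosome 7 from 141015699 to 141017924) belongs to the interferon-induced transmembrane proteins, several of which block virus entry. It measured 27.7, 13.2 and 19.4 CPM across F4/80high replicates 1 to 3 and 70.1, 48.0 and 69.9 CPM across F4/80low replicates 1 to 3. The subsets again did not overlap, and the log2 fold change was -1.64 (SE 0.33). *Ifitm6* varied least of the 7 genes within a subset, by 2.11-fold over the F4/80high and 1.46-fold over the F4/80low libraries. *Chil3* and *Ifitm6* were the only 2 of the 7 genes with subsets that did not overlap, both lower in F4/80high, and 2.90% of the 14645 genes tested showed this.

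*Hp* (ENSMUSG00000031722, chromosome 8 from 109575128 to 109579172) encodes haptoglobin, the scavenger of free hemoglobin, which myeloid cells store in granules. It measured 170, 41.9 and 20.4 CPM in F4/80high replicates 1, 2 and 3. It measured 488, 154 and 75.1 CPM in F4/80low replicates 1, 2 and 3. F4/80high replicate 1 lay above F4/80low replicates 2 and 3, so the subsets overlapped, although the ratio of low to high was 2.88, 3.68 and 3.67 within the pairs. The log2 fold change was -1.69 (SE 0.54), and -1.76 (SE 0.20) when each pair was compared within its own experiment.

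*Vcan* (ENSMUSG00000021614, chromosome 13 from 89655312 to 89742509) encodes versican, a large proteoglycan of the extracellular matrix that binds hyaluronan. It measured 38.3, 11.4 and 135 CPM in F4/80high replicates 1, 2 and 3. It measured 122, 60.8 and 385 CPM in F4/80low replicates 1, 2 and 3. The subsets overlapped because of the level in replicate 3, yet F4/80low was 3.18, 5.32 and 2.85 times F4/80high within the pairs. The log2 fold change was -1.76 (SE 0.44).

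*Plac8* (ENSMUSG00000029322, chromosome 5 from 100553725 to 100572245) encodes a small cysteine-rich protein. It measured 256, 57.6 and 580 CPM in F4/80high replicates 1, 2 and 3. It measured 335, 254 and 1519 CPM in F4/80low replicates 1, 2 and 3. Each F4/80high library lay below its partner, but replicate 1 lay only slightly below, with a low to high ratio of 1.31 against 4.41 and 2.62 in pairs 2 and 3. The log2 fold change was -1.07 (SE 0.46), and -1.93 without F4/80high replicate 1.

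*Ly6c2* (ENSMUSG00000022584, chromosome 15 from 75108158 to 75111970) encodes the Ly6C protein by which mouse monocytes are sorted. It measured 374, 143 and 1229 CPM in F4/80high replicates 1, 2 and 3. It measured 278, 479 and 1861 CPM in F4/80low replicates 1, 2 and 3. The order turned between the pairs, with F4/80high above F4/80low in replicate 1 and below it in replicates 2 and 3. The log2 fold change was -0.57 (SE 0.36), and -1.05 without F4/80high replicate 1.

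*Fn1* (ENSMUSG00000026193, chromosome 1 from 71585520 to 71653200) encodes fibronectin, a matrix glycoprotein bound by integrins. It measured 482, 2052 and 1375 CPM in F4/80high replicates 1, 2 and 3. It measured 874, 1094 and 1731 CPM in F4/80low replicates 1, 2 and 3. F4/80high was lower in pairs 1 and 3 and higher in pair 2, where F4/80high held the highest *Fn1* of all libraries. The log2 fold change was 0.13 (SE 0.45), and its sign turned without F4/80high replicate 2, at -0.76, but not without F4/80high replicate 1, at 0.49.

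**Figure D1:**
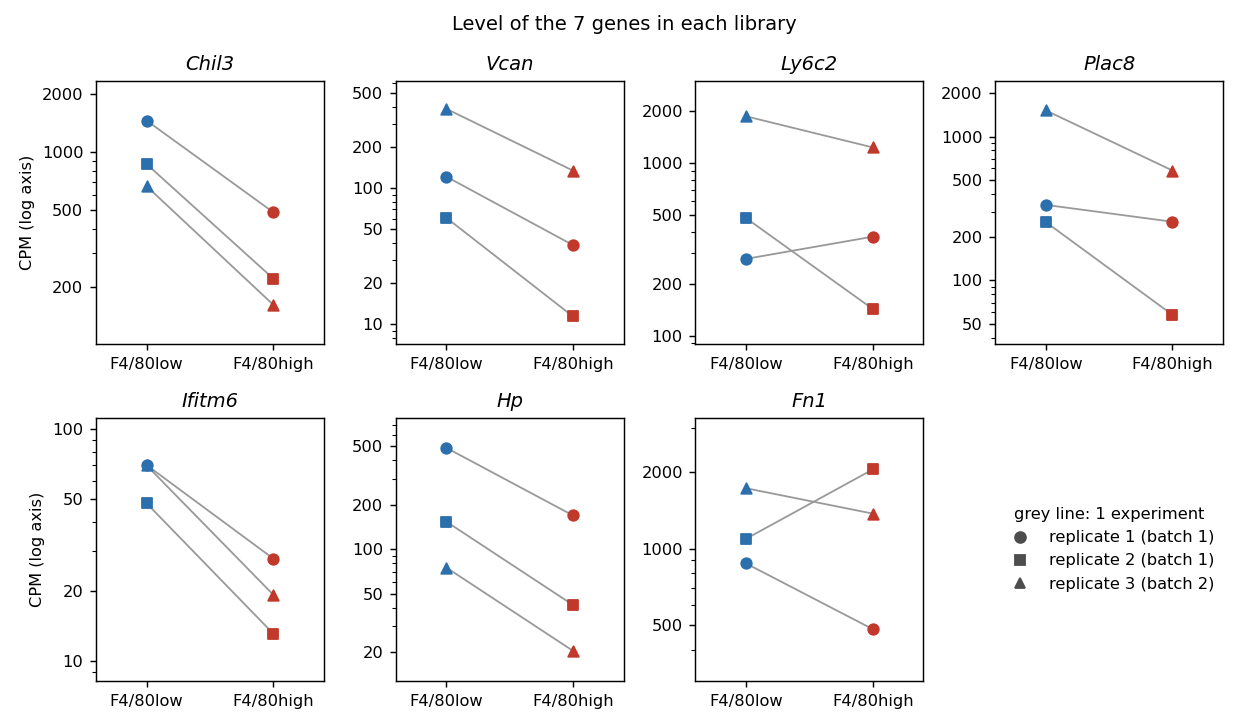
Level of each gene in CPM (log axis, one panel a gene) in F4/80low (blue) and F4/80high (red) TAMs, with the marker giving the replicate and a grey line joining the libraries of 1 experiment. *Chil3*, *Ifitm6*, *Hp*, *Vcan* and *Plac8* slope down from F4/80low to F4/80high in 3 of 3 experiments, while the lines of *Ly6c2* and *Fn1* cross.

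Of the 21 differences formed by 7 genes and 3 pairs, 19 were lower in F4/80high TAMs. Lower in 3 of 3 pairs were 5 of the 7 genes, against 15.9% of all genes tested. The median log2 fold change of the 7 genes was -1.64, and that of all genes was 0.01. By pair, the median of the 7 genes was -1.34, -1.88 and -1.51, so each experiment alone gave the same sign of the median. With batch as a term, edgeR's quasi-likelihood test called 0 of the 7 genes (Benjamini-Hochberg adjusted p below 0.05, log2 fold change beyond 1 in size), and it called 0% of all genes. At an unadjusted p under 0.05, 5 of the 7 (*Chil3*, *Vcan*, *Plac8*, *Ifitm6* and *Hp*) and 4.32% of all genes were lower in F4/80high TAMs, by the same fit. DESeq2 with the same terms called *Chil3*, *Vcan* and *Ifitm6*, and 0.804% of genes as lower. With the replicate number as a block, which compares each pair within its experiment, edgeR called *Chil3*, *Vcan*, *Ifitm6* and *Hp*, and 0.287% of genes as lower. DESeq2 with the block called *Plac8* as well, and 1.73% of genes as lower. *Ly6c2* and *Fn1* were called by none of these 4 fits. The block on pairs 2 and 3 alone, added after seeing the data, called 6 of the 7, all but *Fn1*, and 1.36% of genes as lower. Leaving out F4/80high replicate 1, edgeR with batch called *Chil3*, *Plac8* and *Ifitm6*, and 0.174% of genes as lower. In that fit the log2 fold change was -2.24 for *Chil3*, -2.33 for *Vcan*, -2.04 for *Ifitm6* and -2.49 for *Hp*. Since the genes were chosen on this contrast, these counts describe it and nothing is read from them.

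**Figure D2:**
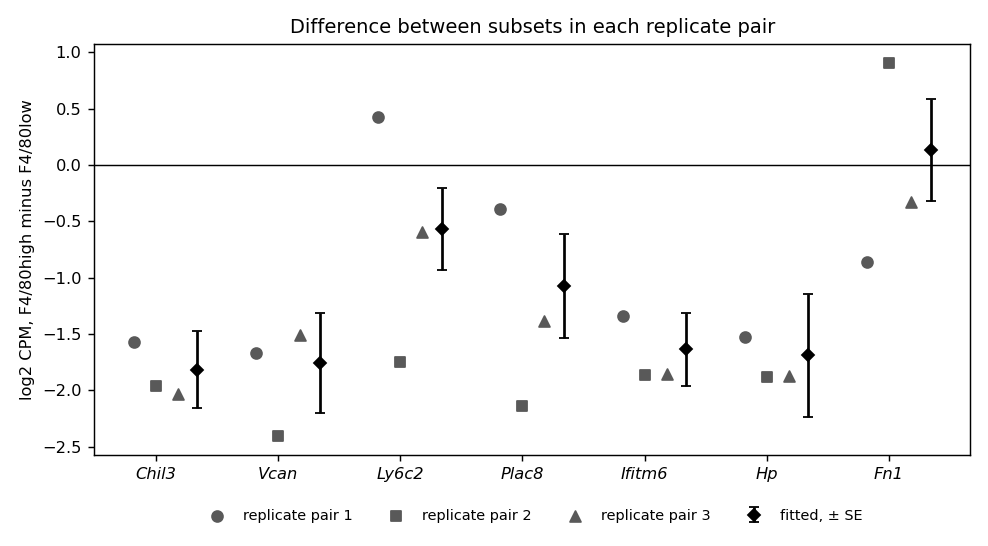
Difference of log2 CPM between F4/80high and F4/80low TAMs for each gene, with a grey marker for each replicate pair and a black diamond for the fitted log2 fold change with its SE. The 3 markers lie below 0 for 5 genes, and *Ly6c2* in pair 1 and *Fn1* in pair 2 lie above it, at 0.43 and 0.91.

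The spread behind these calls was not shared evenly by the genes. In the fit with batch, the biological coefficient of variation of the 7 genes was above that of 80.1% to 98.6% of genes with a mean log2 CPM over 4. Once the replicate number was in the fit, *Hp* stood above 8.27% and *Chil3* above 12.1% of such genes. *Ly6c2*, *Fn1* and *Plac8* stayed among the most variable, above 93.6%, 85.2% and 83.0%. The level of *Hp* and *Chil3* thus differed between experiments while the ratio of the subsets hardly did, and for *Ly6c2* the ratio itself differed.

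The levels in CPM differed between the batches, a contrast that was not used to choose the genes. TMM factors were 0.646 and 0.601 in batch 2 and 1.21 to 1.34 in batch 1. The size of the batch difference thus depends on the scaling. Summed over the 7 genes, F4/80high had 3522 CPM in batch 2 against 1835 and 2541 CPM in batch 1. Their share of F4/80high counts was 0.203% in batch 2 against 0.24% and 0.3%. F4/80low had 6307 CPM against 3621 and 2957 CPM, and 0.341% of counts against 0.438% and 0.369%. The batch term of the edgeR fit called 4 of the 7 genes, against 38.0% of all genes tested. Of these 4, *Ly6c2*, *Vcan* and *Plac8* were higher in batch 2, by 2.28 (SE 0.37, adjusted p = 0.00115), 2.26 (SE 0.44, adjusted p = 0.00286) and 2.13 (SE 0.47, adjusted p = 0.00527) on the log2 scale. Higher in batch 2 were 17.9% of all genes. *Hp* went the other way and was lower in batch 2 by -2.23 (SE 0.63, adjusted p = 0.0182), as were 20.2% of all genes. The differences of *Chil3*, *Fn1* and *Ifitm6* did not pass, at -0.96 (adjusted p = 0.0625), 0.48 (adjusted p = 0.45) and 0.09 (adjusted p = 0.855). Scaled by library size alone, the batch term also called 4 of the 7 genes. Batch 2 is a single experiment, so batch, experiment and library composition cannot be told apart. The fit treated the libraries of an experiment as independent, so these SEs and adjusted p do not cover the spread between experiments.

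The order of the levels per kb of gene length differed between libraries, within batch 1 as well as between the batches. *Chil3* was first in F4/80low replicates 1 and 2 and F4/80high replicate 1, at 891, 531 and 299.5 CPM per kb. In batch 2, *Plac8* led in F4/80low, at 954 CPM per kb, and *Ly6c2* led in F4/80high, at 449 CPM per kb. *Fn1* led in F4/80high replicate 2, at 176 CPM per kb, where *Chil3* followed at 136 CPM per kb. *Vcan* was last in 6 of 6 libraries, at 0.791 to 26.6 CPM per kb. Over the 3 F4/80low libraries the mean levels were 610 ± 251 CPM per kb for *Chil3*, 441 ± 445 for *Plac8*, 319 ± 315 for *Ly6c2*, 178 ± 163 for *Hp*, 116 ± 23.5 for *Ifitm6*, 106 ± 38.1 for *Fn1* and 13.1 ± 11.9 for *Vcan* (SD, n = 3). Neighbours in that order lay within 1 SD of each other from *Chil3* down to *Fn1*, and *Vcan* stood below *Fn1* by more than the SD of both. Over F4/80high the means were 212 ± 209 CPM per kb for *Ly6c2*, 187 ± 166 for *Plac8*, 178 ± 106 for *Chil3*, 112 ± 67.4 for *Fn1*, 57.5 ± 60.0 for *Hp*, 37.1 ± 13.5 for *Ifitm6* and 4.26 ± 4.5 for *Vcan* (SD, n = 3). Here neighbours from *Ly6c2* down to *Ifitm6* differed by less than the larger SD of the pair, and *Ifitm6* and *Vcan* differed by more. Among all tested genes, *Chil3* had a level per length above 96.2% to 99.8% of genes in every library, and *Vcan* above 29.2% to 85.7%.

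**Figure D3:**
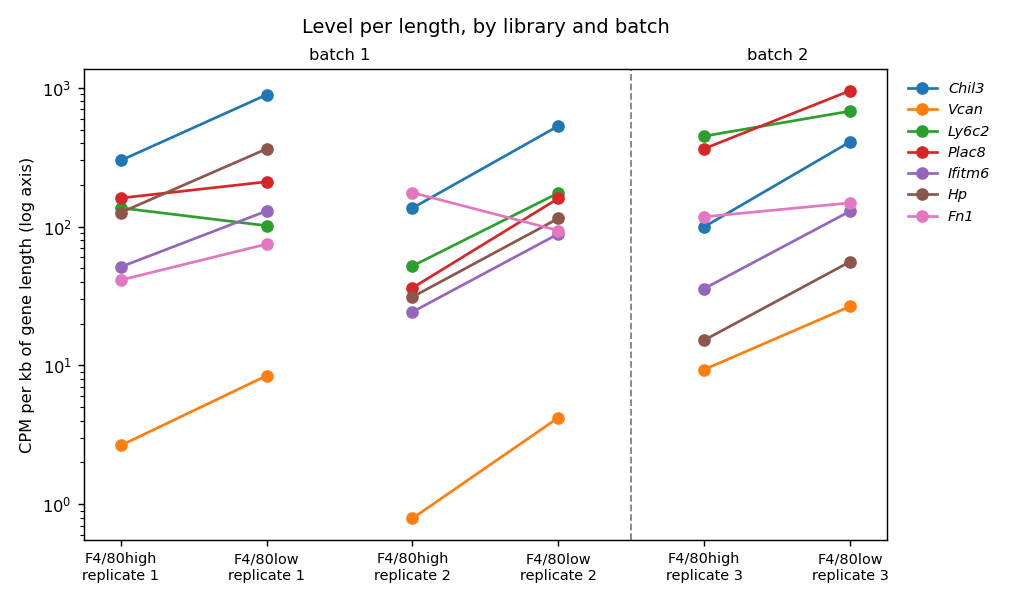
Level of each gene in CPM per kb of gene length (log axis) in the 6 libraries, with a line joining the subsets of 1 experiment and a dashed line between the batches. In batch 2 *Plac8* and *Ly6c2* (954 and 679 CPM per kb in F4/80low) lie above *Chil3* (408), and *Hp* (55.9) lies nearer to *Vcan* (26.6) than in batch 1.

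With the mean of each batch subtracted, the 7 genes were compared with each other over the 6 libraries by Pearson's r, given as a description since 4 of the libraries share a batch and every pair an experiment. The 15 values among *Chil3*, *Vcan*, *Ly6c2*, *Plac8*, *Ifitm6* and *Hp* ran from 0.62 for *Ly6c2* and *Hp* to 1.00 for *Chil3* and *Ifitm6*. *Fn1* had negative values with the other 6 genes, from -0.63 with *Plac8* to -0.27 with *Chil3*. Of 8807 other protein-coding genes whose mean log2 CPM was 3 or more, the 10 with the highest mean r to the 7 genes were *Ccdc86*, *Rasgrp4*, *Fam65b*, *Nr2c2*, *Bud13*, *Klf13*, *Arap3*, *Cks2*, *Bri3bp* and *Coro1a*, at 0.749 to 0.752. The subset difference stays in these values, and the 7 genes were chosen on it, so a gene ranked this way is lower in F4/80high TAMs by construction. *Rasgrp4*, a Ras activator of myeloid cells, measured 40.8, 24.9 and 37.0 CPM across F4/80high replicates 1 to 3 and 70.9, 58.4 and 72.3 CPM across F4/80low replicates 1 to 3, without overlap. *Coro1a*, an actin-binding protein of leukocytes, was lower by only 0.40, 0.74 and 0.51 on the log2 scale in the pairs, so likeness of pattern did not mean likeness of size.

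Other genes of classical monocytes, from a list of 24, were lower in F4/80high TAMs in 21 cases and higher in 3, with a median log2 fold change of -0.62. At an unadjusted p under 0.05, 12 were lower and 1 was higher (4.32% and 3.28% of all genes), and 0 were called with batch. The replicate block called 2 (*Ltb4r1* and *Mmp8*) as lower. *Ltb4r1*, the receptor for the chemoattractant leukotriene B4, measured 64.4, 40.2 and 6.16 CPM across F4/80high replicates 1 to 3 and 156, 134 and 20.3 CPM across F4/80low replicates 1 to 3. Its log2 fold change was -1.55 (SE 0.26), and those of *Thbs1*, which encodes the matrix protein thrombospondin 1, and *Mgst1*, a microsomal glutathione transferase, were -1.17 and -1.05. *Ccr2*, named after its values were seen because it draws monocytes into tissue, had a log2 fold change of -0.60 (SE 0.25) and was lower in 3 of 3 pairs. Higher fitted values were those of *F13a1*, coagulation factor XIII, at 1.05, *Cd93* at 1.00 and *Lyz2*, lysozyme, at 0.28. *Cd93* was higher in 3 of 3 pairs. *Lyz2* was lower in F4/80high in pairs 1 and 3, at -0.34 and -0.66, and higher in pair 2, at 1.31. *F13a1* measured 2073 CPM in F4/80high replicate 2, where *Fn1* was also highest, and 155 to 421 CPM in the other 5 libraries. *Mmp8* is held by the neutrophil list too.

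Genes of nonclassical monocytes, which patrol vessels, had a fitted value lower in F4/80high TAMs in 15 of 15 cases, 6 of them at an unadjusted p under 0.05. Only 8 of the 15 were lower in 3 of 3 pairs (15.9% of all genes), and *Spn* was at -0.03. *Cx3cr1*, which nonclassical monocytes also express, was placed in the macrophage maturation list. It went the other way, at 1.15, and was higher in F4/80high TAMs in 3 of 3 pairs. *Adgre4*, a relative of the F4/80 gene, had a log2 fold change of -1.41, *Treml4* -1.42 and *Pglyrp1* -1.22, and the block called *Adgre4*. Among 18 transcription factors of the lineage, 11 were lower and 7 higher, with a median of -0.12, and 2 in each direction had an unadjusted p under 0.05. *Cebpb*, which nonclassical and inflammatory monocytes use, and *Cebpe*, a factor of granule genes, were the 2 lower, at -0.84 and -1.35. *Cebpa* and *Maf*, a macrophage factor, were the 2 higher, at 1.14 and 1.33, and the block called *Maf*. *Klf13* and *Myc*, at -0.44 and 0.47, did not pass that threshold. Of 19 genes of macrophage maturation, 17 were higher in F4/80high TAMs, 10 at an unadjusted p under 0.05, and 2 were lower. The block called 8 of them as higher, against 0.232% of all genes, with log2 fold changes in the fit with batch of 2.19 for *Mrc1*, the mannose receptor, 1.93 for *C1qa* and 1.63 for *Mertk*. *Itgam*, one of the 2 lower, was at -0.20.

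**Figure D4:**
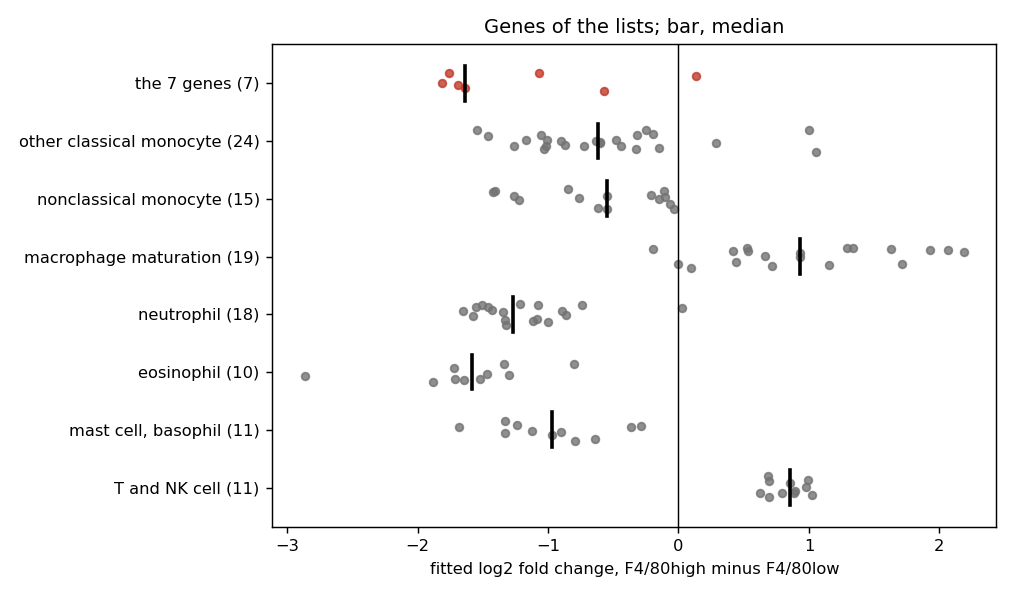
Fitted log2 fold change (F4/80high minus F4/80low) of each tested gene of 8 lists, with the number of genes in brackets and a bar at the median. The medians are -1.64 for the 7 genes, -0.62 for other classical monocyte genes, -1.27 for neutrophil markers and 0.93 for macrophage maturation.

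The families and partners of the 7 genes gave few values past the test. Of the other chitinase-like genes, *Chil1* measured 1.83 to 76.7 CPM, while *Chil4* stayed under 1 CPM in every library. *Chil5* was the 1 of 6 tested with an unadjusted p under 0.05, lower at -4.88. It rested on 53 counts in F4/80low replicate 1, with 8 or fewer in every other library. In the Ly6 family *Plaur*, the urokinase receptor, was lower at -0.59 and was the 1 of 11 with an unadjusted p under 0.05. Among the IFITM genes, *Ifitm3* measured 368, 219 and 315 CPM across F4/80high replicates 1 to 3 and 416, 430 and 533 CPM across F4/80low replicates 1 to 3, with a log2 fold change of -0.60. *Ifitm6* and *Ifitm3* were both lower in 3 of 3 pairs, *Ifitm6* by the larger amount in each. Of the 5 other IFITM genes tested, 4 were lower and 1 was higher. *Ifitm3* and *Ifitm5*, at -1.06, were the 2 with an unadjusted p under 0.05. Of 11 versican partners, 11 had a fitted value lower in F4/80high, but only 7 were lower in 3 of 3 pairs (15.9% of all genes). *Tlr2* was at -0.03, and *Has2*, *Adamts9* and *Hapln4* were at 0 counts in some libraries. At an unadjusted p under 0.05, 3 of the 11 were lower. These 3 were *Cd44*, the hyaluronan receptor, at -0.68, *Tnfaip6*, which cross-links hyaluronan, at -1.13 and *Adamts4*, a protease that cuts versican, at -1.25.

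Partners of haptoglobin and fibronectin went both ways. *Cd163*, the receptor that takes up haptoglobin with hemoglobin, was higher in F4/80high in 3 of 3 pairs, opposite to *Hp*. It measured 10.9, 65.2 and 7.46 CPM across F4/80high replicates 1 to 3. Across F4/80low replicates 1 to 3 it measured 1.83, 12 and 0.228 CPM, the last resting on 2 counts. The edgeR fit with the block called *Cd163* as higher, at a log2 fold change of 2.90 (adjusted p = 0.0317). Of 16 receptors and crosslinkers of fibronectin, 8 were lower and 8 higher. *Itga9*, an integrin subunit that binds fibronectin, was higher at 2.17 (SE 0.49) and was called by the block (adjusted p = 0.0272). *Itga4* and its partner *Itgb7* were lower at -0.91 and -1.13, and *Tgm2*, a transglutaminase that cross-links fibronectin, at -0.997. The values of *Fn1* itself lay between these.

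Markers of other myeloid cells went with the monocyte genes. Of 18 neutrophil markers 17 were lower in F4/80high TAMs, with a median log2 fold change of -1.27, and the block called 9 of them. Their summed level was 2469, 1104 and 842 CPM across F4/80high replicates 1 to 3 and 5921, 3619 and 1741 CPM across F4/80low replicates 1 to 3, so low exceeded high by 2.40, 3.28 and 2.07 times in the pairs. *Camp*, *Ngp* and *Mmp9*, which encode granule proteins, had log2 fold changes of -1.57, -1.34 and -1.51. *S100a8*, an alarmin of neutrophils and monocytes alike, measured 70.4 to 342 CPM in F4/80high and 133 to 723 CPM in F4/80low. *Ly6g*, which defines neutrophils, measured 1.19 to 4.62 CPM in F4/80high and 1.48 to 8.89 CPM in F4/80low, and *Mpo*, *Elane* and *Ctsg* were at 0 in some libraries.

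Relative to that neutrophil sum, the 7 genes fell into different patterns. *Chil3* amounted to 19.8%, 20.1% and 19.3% of the sum across F4/80high replicates 1 to 3 and 24.6%, 24.0% and 38.3% across F4/80low replicates 1 to 3. Its share thus spanned 1.98-fold, while *Chil3* itself spanned 8.94-fold over the libraries. The share of *Hp* spanned 3.39-fold, against 23.9-fold for its CPM, and that of *Ifitm6* 3.58-fold, against 5.33-fold. The share of *Vcan* spanned 21.3-fold, that of *Plac8* 16.7-fold and that of *Ly6c2* 31.1-fold, with both batch 2 libraries at the top for each. Within the pairs, the shares of *Chil3*, *Hp*, *Ifitm6* and *Vcan* were lower in F4/80high in 3 of 3, at 0.505 to 0.947 times F4/80low. Those of *Ly6c2*, *Plac8* and *Fn1* were not, with *Fn1* higher in F4/80high in 3 of 3 pairs by 1.32, 6.15 and 1.64 times. The part that neutrophil RNA has in the monocyte genes was not tested.

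**Figure D5:**
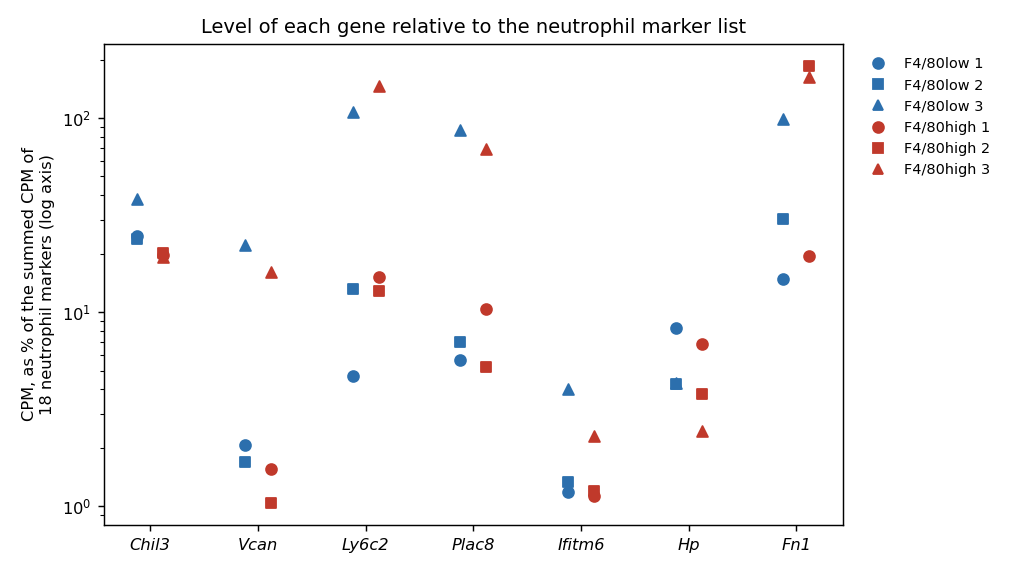
CPM of each gene as a percentage of the summed CPM of 18 neutrophil markers (log axis) in each library, F4/80low in blue and F4/80high in red. *Chil3* stays between 19.3% and 38.3%, while *Vcan*, *Ly6c2* and *Plac8* split into low values in batch 1 and high values in replicate 3.

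Eosinophil markers were lower in F4/80high in 10 of 10 cases, with summed levels of 179 to 533 CPM against 406 to 1520 CPM in F4/80low. *Siglecf*, which defines them, measured 19.6 to 62.5 CPM in F4/80high and 40.7 to 175 CPM in F4/80low. Mast cell and basophil markers were lower in 11 of 11 cases, at 41.7 to 345 CPM against 111 to 895 CPM, and dendritic cell markers in 10 of 14, at 246 to 586 CPM against 334 to 830 CPM. *Flt3*, which marks dendritic cells, measured 2.81 to 12 CPM in F4/80high and 9.81 to 26.4 CPM in F4/80low. T and NK cell markers had a higher fitted value in F4/80high in 11 of 11 tested, but 0 of the 11 were higher in 3 of 3 pairs, and in pair 2 their sum was lower in F4/80high, at 507 against 794 CPM. The list had 140 to 794 CPM in sum in the 5 libraries other than F4/80high replicate 1, where *Cd3e* measured 163 CPM. Without F4/80high replicate 1 the median of the T and NK list moved from 0.86 to 0.15, and that of the neutrophil list from -1.27 to -1.63. Fibroblast markers were lower in 9 of 10 cases, erythroid markers in 6 of 6 and endothelial markers in 5 of 7, and B and plasma cell markers in 2 of 7. The summed levels of F4/80high and F4/80low overlapped in each of these lists, as they did for neutrophil, eosinophil, dendritic, and mast cell and basophil markers. In F4/80high against F4/80low they ran from 572 to 1580 against 1322 to 1959 CPM for fibroblast, 13.3 to 69.9 against 18 to 125 CPM for erythroid and 32.4 to 82.8 against 39.1 to 87.6 CPM for endothelial markers. B and plasma cell markers summed to 56.5 to 454 against 40.6 to 415 CPM, and keratinocyte markers to 1.30 to 4.24 against 1.03 to 5.0 CPM. *Col1a1* measured 42.3 to 121 CPM, *Pecam1* 24.3 to 67.3 CPM and the melanoma gene *Pmel* 0.432 to 1.82 CPM over all libraries. Markers of resident macrophages were higher in 7 of 9 cases. The part of these cells in the levels of the 7 genes was not tested.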

How the data were processed

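The transcriptomes of both TAM subsets were sequenced in 6 libraries. The authors deposited a table of raw read counts for each library, with the length and biotype of each gene and no normalization. The aligner, counting rule, strand and genome build are not given in the sources used here. Of the gene IDs, 99.4% were found in GENCODE M21 (GRCm38), from which positions and biotypes were taken. The 14645 protein-coding genes with at least 10 summed counts were tested with edgeR 4.0.16 (R 4.3.3) by its quasi-likelihood test, with TMM scaling and terms for batch and subset. DESeq2 1.42.0 and other settings were alternatives. Log2 CPM used a prior count of 2. CPM per kb were divided by the deposited gene length. Steps were tested on simulated data with less spread than the real libraries, so that test does not show how well the fits recover changes here.

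The members and gene lists were chosen with earlier results of these data known. Named besides the 7 genes are sort and cell type markers, close paralogs, up to 3 genes with the smallest unadjusted p in each direction of each list, and the 10 genes most like the 7. Melanoma genes *Dct*, *Tyrp1* and *Tyr* were not found by symbol in the count tables, and 4 melanoma markers were tested.

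The subsets of a replicate number are taken to come from the same experiment, so the numbers pair them. Deviations from subset means correlated at 0.745, 0.729 and 0.907 in replicates 1, 2 and 3 over 10072 genes. These deviations hold the batch difference, and mismatched pairs were not compared. They therefore cannot show the pairing of replicates 1 and 2 within batch 1. At the raw library sizes, before TMM scaling, 3 counts are 0.0688 to 0.187 CPM. With TMM scaling, as for the other CPM given here, 2 counts were already 0.2162 and 0.2282 CPM in the libraries of replicate 3. The p-values of the fits with batch cover the spread of libraries within a batch, with the libraries of an experiment treated as independent. Those of the fits with the block cover the spread of the pair differences.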

Additional observations from a re-analysis of the deposited data

How the results depend on the processing

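The number of genes called moved from 0 with edgeR and batch to 150 with DESeq2, 76 with the replicate block, 356 with DESeq2 and the block, and 0 to 57 when 1 library was left out, the highest without F4/80high replicate 1. Under the same settings 3, 4, 5 and 0 to 3 of the 7 genes, and 4, 2, 7 and 0 to 1 of the other classical monocyte genes, were called. The pairing of experiments 2 and 3 alone, a block chosen after seeing the data, gave 315 genes, 6 of the 7 (all but *Fn1*, with 1.36% of genes called lower) and 5 of the other classical genes. The median log2 fold change of the 7 genes ranged from -2.04 to -1.12 when 1 library was left out.

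The sign of *Fn1* turned to -0.10 with the replicate block and -0.10 with DESeq2 and the block. Leaving out F4/80high replicate 2 gave -0.76 and leaving out F4/80low replicate 1 gave -0.03, within a range of -0.76 to 0.49 over single libraries left out. For the other 6 genes every alternative fit kept the sign, over ranges of -2.24 to -1.61 for *Chil3*, -2.33 to -1.39 for *Vcan*, -1.17 to -0.29 for *Ly6c2*, -1.93 to -0.72 for *Plac8*, -2.04 to -1.43 for *Ifitm6* and -2.49 to -1.12 for *Hp*. The count of 19 of 21 lower pair differences held under other scalings and another prior count. The cause of these changes was not tested. With 3 libraries a subset and 1 experiment in batch 2, an adjusted p rests on few degrees of freedom. Depth limited *Chil4*, *Chil5*, *Ly6g* and *Cd163* in F4/80low replicate 3, among others, not the 7 genes.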
